A study of Drosophila melanogaster with 8 samples.

Results

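Maternal NSUN2 knockout embryos of Drosophila melanogaster at 4-5 h after egg laying were compared with maternal NSUN2 knockout embryos at 2-3 h, so that the changes within the knockout course itself could be described. These 2 conditions were chosen by their labels, and they are 2 of 8 conditions for which 1 mRNA-seq table each was used. Knockout embryos came from NSUN2-/- virgin females mated to w1118 males, and wild-type (WT) embryos from w1118 females mated to w1118 males, with the strain given as WIII8 for both. WT embryos were collected at 0-0.5, 1-2, 2-3, 3-4 and 4-5 h and knockout embryos at 0-0.5, 2-3 and 4-5 h, each as a pool of 70 to 100 embryos. The knockout removes NSUN2 from what the mother puts into the egg. The gene lies on the X chromosome and the father carried a normal copy, which is passed to daughters only, so that the female embryos were heterozygous. The paper counts every male embryo of this cross as a homozygous mutant, so male embryos had no normal copy of their own. The alleles were made by CRISPR/Cas9 mutagenesis, and the labels do not say which allele was used.

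NSUN2 is an RNA methyltransferase that makes 5-methylcytosine (m5C) in tRNAs and mRNAs. A fly egg is loaded with maternal mRNAs that drive its first, very fast nuclear divisions. These mRNAs are then degraded while the embryo's own (zygotic) genome is switched on, first for a small set of short-lived transcripts that build cell membranes around the nuclei (cellularisation), and then for the genes that lay out the germ layers, segments and nervous system during gastrulation and germ band extension. A window that closes at 4-5 h therefore holds the end of maternal clearance, the disappearance of the early zygotic transcripts and the rise of the patterning genes.

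The values were FPKM (mapped fragments scaled to transcript length and library size), as deposited, for the same 15598 genes in each table, with the interval that Cufflinks gives for each value. In the knockout, transcripts of 11218 genes were found at 4-5 h and of 10155 genes at 2-3 h, and 7449 and 6919 of them reached an FPKM of 1. The half-width of the interval was a median of 23.0% of the value at 4-5 h and 23.3% at 2-3 h where FPKM lay between 1 and 2, and 7.77% and 7.79% where it lay between 10 and 20. Since each condition had a single table, the differences had no replicate check, and p-values were not computed. Whether a table holds 1 library or an average of several was not settled, so the interval is not taken to cover the spread between collections of embryos. In pools of whole embryos, fewer cells of a type and less RNA per cell cannot be told apart.

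The knockout tables carried the transcripts of early embryos. The maternal patterning mRNAs osk, bcd and nos had 28.8, 27.7 and 6.26 FPKM at 4-5 h, against 69.6, 57.6 and 27.2 FPKM at 2-3 h. Among zygotic patterning genes, Kr, sna and twi had 63.8, 38.7 and 12.6 FPKM at 4-5 h, against 15.7, 11.1 and 5.06 FPKM at 2-3 h, and ftz had 8.76 FPKM at 4-5 h, against 13 FPKM at 2-3 h. The pair-rule gene eve stayed under 1 FPKM in both knockout tables, at 0.331 and 0.868 FPKM. The tables of 0-0.5 h already held zygotic transcripts, since bnk, nullo and scw had 16.9, 30.6 and 18.3 FPKM there in the knockout and 21.2, 59.5 and 30.5 FPKM in WT, so that presence at 0-0.5 h does not mark a transcript as maternal. Transcripts of other sources were scarce. The 9 testis and sperm genes summed to 0.282 FPKM at 4-5 h and 0.0194 FPKM at 2-3 h, the 8 adult fat body and gut genes to 0.0293 FPKM at 4-5 h, and the 12 late differentiation genes to 2.77 FPKM at 4-5 h and 1.73 FPKM at 2-3 h. The 13 follicle cell and yolk genes summed to 2.22 FPKM at 4-5 h and 11.8 FPKM at 2-3 h, and the highest of them at 2-3 h was Cp15, a chorion protein gene of the follicle cells, with 1.15 FPKM at 4-5 h and 11.7 FPKM at 2-3 h.

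Nsun2, the mutated gene (X chromosome, 4005189 to 4007767, BDGP5), had 1.18 FPKM in knockout embryos at 4-5 h (interval 0.918 to 1.44) and 0.213 FPKM at 2-3 h (0.0989 to 0.328). The intervals did not overlap, and the ratio was 5.53, but the difference of 0.85 on the log2(FPKM + 1) scale stayed below the size set for a call. WT embryos had 6.59 FPKM at 4-5 h and 2.71 FPKM at 2-3 h. The tables do not separate transcripts of the mutant and the paternal allele.

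For each gene the difference in log2(FPKM + 1), 4-5 h minus 2-3 h, was taken. A gene was called risen or fallen where the difference was at least 1 in size, which is a factor of 2 on the FPKM + 1 scale, and the 2 intervals did not overlap. Genes with an FPKM of at least 1 in at least 1 of the 2 tables entered the comparison. Of 7657 such genes, 1124 rose (14.7% of them) and 941 fell (12.3%), while 5592 did neither. The median difference over all 7657 genes was -0.13, with quartiles at -0.63 and 0.52. The median size of the difference was 0.59, and 43.2% of the genes were higher at 4-5 h. A further 91 genes passed the fold but had overlapping intervals. Which direction held more calls depended on the processing, since 1021 rose and 1340 fell when each table was scaled to a common total, 730 rose and 863 fell among genes of at least 5 FPKM, and 529 rose and 565 fell with a pseudocount of 5. The risen genes together held 5.42% of all FPKM at 4-5 h and 1.29% at 2-3 h, and the fallen genes held 2.18% at 4-5 h and 7.18% at 2-3 h.

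**Figure D1:**
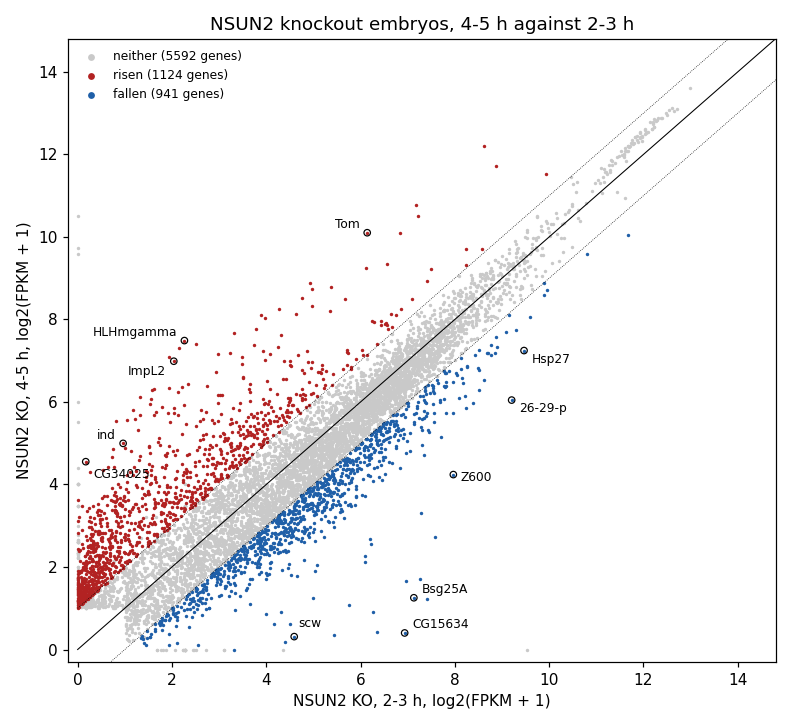
Each point is 1 of the 7657 genes that entered the comparison, with log2(FPKM + 1) of knockout embryos at 4-5 h on the vertical axis and at 2-3 h on the horizontal axis. The solid line marks equal values and the dotted lines a difference of 1 in either direction. The 1124 risen genes (red) are mostly low at 2-3 h, while the 941 fallen genes (blue) span a wide range of levels at 2-3 h, and CG15634, Bsg25A and scw lie far below the line. Grey points beyond the dotted lines had overlapping intervals.

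The 10 largest rises among well measured genes were led by targets of Notch signalling. HLHmgamma, a basic helix-loop-helix repressor of the Enhancer of split complex (chromosome arm 3R, 21825573 to 21826483, BDGP5), had 178 FPKM at 4-5 h (173 to 184) and 3.80 FPKM at 2-3 h (2.98 to 4.63), a rise of 5.22. HLHm5 and HLHmdelta encode repressors of the same family and reached 159 and 68.5 FPKM at 4-5 h, against 3.41 and 1.51 FPKM at 2-3 h. The Bearded family gene malpha, whose protein family inhibits the ubiquitin ligase Neuralized, had 168 FPKM at 4-5 h and 4.71 FPKM at 2-3 h.

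The other 6 of these 10 rises had varied roles. The gene wntD, a Wnt ligand that restrains Toll signalling, had 136 FPKM at 4-5 h and 2.80 FPKM at 2-3 h. ImpL2, which encodes a secreted insulin-binding protein, had 126 FPKM at 4-5 h and 3.11 FPKM at 2-3 h. The transcription regulators edl, drm and pdm2 had 77.4, 78.9 and 55.2 FPKM at 4-5 h, against 1.97, 2.08 and 1.24 FPKM at 2-3 h. The gene listed as ventrally-expressed-protein-D had 45.7 FPKM at 4-5 h and 0.745 FPKM at 2-3 h. For all 10 genes the intervals at both ages lay far apart, and the ratio of 4-5 h to 2-3 h was between 35.7 for malpha and 61.3 for ventrally-expressed-protein-D.

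The Notch list held 21 genes, of which 19 entered the comparison, and 14 of these rose and none fell. Their median difference was 3.95, beside -0.13 for all genes, and the summed FPKM of the list was 3056 at 4-5 h and 316 at 2-3 h. The highest members were Bearded family genes on 3L. Tom had 1098 FPKM at 4-5 h and 69.6 FPKM at 2-3 h, Brd had 470 FPKM at 4-5 h and 29.4 FPKM at 2-3 h, and Ocho had 218 FPKM at 4-5 h and 12.7 FPKM at 2-3 h. On 3R, m4 had 263 FPKM at 4-5 h and 14.6 FPKM at 2-3 h. The receptor, ligand and DNA-binding genes of the pathway moved much less than the Bearded and Enhancer of split genes named here. The receptor gene N had 5.47 FPKM at 4-5 h and 5.02 FPKM at 2-3 h, the ligand gene Dl had 35.7 and 24.3 FPKM, and Su(H), the DNA-binding partner of Notch, had 63.6 and 81.4 FPKM, none of them called. The gene neur, which encodes Neuralized, rose to 36.2 FPKM at 4-5 h, against 14.6 FPKM at 2-3 h. Under each scaling tried, the median of this list stayed above that of all genes.

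Late activation was described with a stricter set. It holds the risen genes with FPKM below 1 at 2-3 h and of at least 5 at 4-5 h, 129 in all, and their median FPKM was 8.04 at 4-5 h and 0.559 at 2-3 h. At 0-0.5 h, 121 of the 129 had FPKM below 1 in the knockout. Besides ventrally-expressed-protein-D and m2, another Bearded family gene, the highest at 4-5 h was ind, a homeobox gene of the intermediate neuroblast column, with 30.9 FPKM at 4-5 h (28.9 to 33.0) and 0.951 FPKM at 2-3 h (0.591 to 1.31). CG32982, VhaM9.7-a (a subunit of the vacuolar proton pump) and CG34025 followed, with 28.2, 24.2 and 22.5 FPKM at 4-5 h, against 0.674, 0.662 and 0.126 FPKM at 2-3 h. The gene lists supplied 25 of the 129, 1 of which was the ribosomal protein gene RpL37b, and 104 were in no list.

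Segment polarity genes, which keep the borders of each segment, rose in 7 of the 9 that entered the comparison (12 were listed), with a median difference of 1.89. The highest was ci, the transcription factor of Hedgehog signalling, with 82.5 FPKM at 4-5 h and 5.71 FPKM at 2-3 h. The homeobox-containing gene gsb, the Wnt antagonist gene nkd and the Wnt ligand gene wg had 9.79, 10.3 and 9.43 FPKM at 4-5 h, against 0.177, 0.909 and 0.365 FPKM at 2-3 h. These 3 entered only through the 4-5 h table, and with a pseudocount of 5 only 4 of the 9 segment polarity genes rose. Hox genes, which give segments their identity, rose in all 6 that entered (8 were listed), with a median of 1.95. Each of the 6 was below 1 FPKM at 2-3 h, and the list summed to 1.69 FPKM there. They entered only through the 4-5 h table, where they were the higher by construction. The calls of Dfd and Scr ended under quantile normalization, and with a pseudocount of 5 only 2 of the 6 rose. Abd-B, Antp and abd-A reached 8.89, 8.23 and 5.81 FPKM at 4-5 h, against 0.478, 0.204 and 0.631 FPKM at 2-3 h. Both groups were close to silent at 2-3 h except for ci and arm. At 4-5 h ci and arm had 82.5 and 47.8 FPKM, while the other members with values given here had 10.3 FPKM or less.

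The earlier tiers of the segmentation cascade were mixed. Of 13 gap and head gap genes, 12 entered, 5 rose and 1 fell, with a median of 0.77. Under quantile normalization 2 rose and 2 fell, with a median of 0.26. Kr, a zinc finger gap gene, had 63.8 FPKM at 4-5 h and 15.7 FPKM at 2-3 h, and hb, which has both a maternal and a zygotic transcript, fell to 6.17 FPKM at 4-5 h (5.63 to 6.71), against 14.3 FPKM at 2-3 h (13.4 to 15.2). The gap genes gt, kni, tll and hkb were not called. Of 11 pair-rule genes, 8 entered and 3 rose, with a median of 0.71 that became 0.23 under quantile normalization. The forkhead gene slp1 had 121 FPKM at 4-5 h and 10.2 FPKM at 2-3 h, and its neighbour slp2 had 12.2 and 0.547 FPKM. The zinc finger gene odd rose to 15.3 FPKM at 4-5 h, against 5.29 FPKM at 2-3 h, while ftz, h and run were not called.

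Genes of the dorsal side and of bone morphogenetic protein (BMP) signalling moved in both directions. Of 20 listed, 19 entered, 11 rose and 3 fell, with a median of 1.19, and under quantile normalization 7 rose and 4 fell. The 3 that fell were scw, a BMP ligand, zen, the homeobox gene of the extraembryonic amnioserosa, and tsg, a BMP-binding protein. They had 0.242, 3.16 and 6.63 FPKM at 4-5 h, against 23.1, 32.9 and 20.5 FPKM at 2-3 h. Among the 11 that rose, Ance, a peptidase gene of the amnioserosa, had 104 FPKM at 4-5 h and 6.67 FPKM at 2-3 h. The T-box genes Doc1, Doc2 and Doc3 had 36.5, 11.5 and 11.1 FPKM at 4-5 h, against 3.62, 0.785 and 0.757 FPKM at 2-3 h. The BMP receptor gene tkv, present at all ages, had 84.1 FPKM at 4-5 h and 89.3 FPKM at 2-3 h.

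In the mesoderm list 10 of 14 genes that entered rose (16 were listed) and none fell, with a median of 1.67. The zinc finger repressor gene sna had 38.7 FPKM at 4-5 h and 11.1 FPKM at 2-3 h. The fibroblast growth factor gene ths had 20.6 FPKM at 4-5 h and 0.559 FPKM at 2-3 h, and its receptor gene htl had 11.2 and 1.02 FPKM. The homeobox gene tin, which acts downstream of twi, had 9.31 FPKM at 4-5 h and 0.152 FPKM at 2-3 h. Among neuroectoderm and neural precursor genes, 10 of 16 that entered rose (20 were listed) and none fell, with a median of 1.73. The proneural genes l(1)sc and ac had 144 and 50.2 FPKM at 4-5 h, against 8.36 and 3.38 FPKM at 2-3 h, and esg, a Snail-type zinc finger gene, had 26.2 and 2.71 FPKM. The pan-neural gene dpn (4.13 FPKM at 4-5 h and 3.67 FPKM at 2-3 h) and the proneural gene sc (10.3 and 6.49 FPKM) were not called. Several of the risen genes, such as ths and tin, were below 1 FPKM at 2-3 h and entered only through the 4-5 h table. With a pseudocount of 5, 6 of the 14 mesoderm genes and 5 of the 16 neuroectoderm and neural precursor genes rose.

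Signalling and organ primordium genes followed the same direction. Of 12 genes of the epidermal growth factor receptor pathway that entered (14 were listed), 7 rose and none fell, with a median of 1.42. They were the receptor gene Egfr, the ligand genes spi and vn, S (Star, which is needed to process the ligand), the transcription factor gene pnt, and the feedback inhibitor genes aos and sty. The call of S ended when the tables were scaled to a common total, and with a pseudocount of 5 only 3 of the 12 rose. The ligand gene spi had 278 FPKM at 4-5 h and 23.7 FPKM at 2-3 h, and pnt and aos had 17.2 and 18.7 FPKM at 4-5 h, against 1.73 and 1.78 FPKM at 2-3 h. The intracellular members Ras85D, phl, drk and aop, all above 20 FPKM at 2-3 h, were not called. Among 4 tracheal genes 3 rose, and btl, the receptor of the tracheal growth factor, had 6.07 FPKM at 4-5 h and 0.486 FPKM at 2-3 h. Among 4 salivary gland genes 3 rose, with hth, a Hox cofactor of wider use, at 79.4 FPKM at 4-5 h and 2.83 FPKM at 2-3 h. Of 6 endoderm, gut and blood precursor genes 3 rose, among them gcm, the glial and blood determinant, with 14.3 FPKM at 4-5 h and 0.853 FPKM at 2-3 h, and 1 fell, the posterior determinant cad, with 4.05 and 18.1 FPKM. The risen genes gcm, srp, fkh, btl, bnl and CrebA were below 1 FPKM at 2-3 h. They entered only through the 4-5 h table, where they were the higher by construction. With a pseudocount of 5, 1 of the 4 tracheal, 2 of the 4 salivary gland and 2 of the 6 endoderm, gut and blood genes rose. In the ecdysone list 5 of 8 that entered rose (18 were listed). They included the hormone synthesis genes dib and spo with 29.5 and 46.9 FPKM at 4-5 h, against 2.84 and 14.2 FPKM at 2-3 h.

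The falls were led by early zygotic transcripts. The 10 largest falls among well measured genes were CG15634, bnk, Bsg25A, CG34137, CG15382, CG43725, nullo, CG14915, CG15876 and scw. CG15634 had 0.321 FPKM at 4-5 h (0.143 to 0.499) and 121 FPKM at 2-3 h (118 to 125), a ratio of 378 and the largest fall of the 10. The gene bnk, which controls the contraction of the cellularisation furrows, had 0.336 FPKM at 4-5 h (0.161 to 0.511) and 80.2 FPKM at 2-3 h (77.4 to 82.9). Bsg25A, named for its expression in the blastoderm, had 1.39 FPKM at 4-5 h (1.00 to 1.77) and 139 FPKM at 2-3 h (135 to 143). All 10 fell in WT embryos too.

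The cellularisation list fell most among the lists. All 9 of its genes entered, 7 fell and 1 rose, with a median of -3.13. Sry-alpha, slam and nullo, whose proteins act at the advancing furrow, had 3.83, 10.3 and 0.285 FPKM at 4-5 h, against 67.1, 52.1 and 42.0 FPKM at 2-3 h. Z600 (fruhstart), an inhibitor of the mitotic cyclin kinases, had 17.9 FPKM at 4-5 h (14.9 to 20.9) and 249 FPKM at 2-3 h (234 to 264). The gene halo, which directs lipid droplet transport, had 87.4 FPKM at 4-5 h and 288 FPKM at 2-3 h, and was the highest of the list at both ages. The 1 that rose was sisA, an X-linked gene by which the embryo counts its X chromosomes, with 45.2 FPKM at 4-5 h and 16 FPKM at 2-3 h. The remaining gene, trbl, which triggers the degradation of String, had 12.4 and 9.24 FPKM.

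Over the 3 knockout collections, 43 genes rose by 2-3 h and then fell by 4-5 h. The highest at 2-3 h were CG34214, halo and Z600. CG14915 had 13 FPKM at 0-0.5 h, 190 FPKM at 2-3 h and 5.62 FPKM at 4-5 h, and Bsg25D, a gene of centrosomes and nuclear cycles, had 77.1, 168 and 52.5 FPKM. In WT embryos 63 of 7227 genes (0.872%) had this course, beside 43 of 6981 (0.616%) in the knockout. Of these, 24 were shared, which is 55.8% of the knockout genes and 38.1% of the WT genes.

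Late clearance was described with the fallen genes that had FPKM of at least 5 at 2-3 h and a fall of at least 2 on the log2 scale. There were 104 such genes, with a median FPKM of 5.97 at 4-5 h and 46.9 at 2-3 h. All 104 had FPKM of at least 1 at 0-0.5 h in the knockout. From 0-0.5 h to 2-3 h, 22 of them had risen, 18 had fallen and 64 had done neither. The highest at 2-3 h was Hsp27, a small heat shock protein gene, with 2005 FPKM at 0-0.5 h, 707 FPKM at 2-3 h and 151 FPKM at 4-5 h. The lysosomal protease gene 26-29-p had 65.0 FPKM at 4-5 h and 589 FPKM at 2-3 h, and PHGPx, a glutathione peroxidase gene, had 90.9 and 391 FPKM. Hsc70-3, the Hsp70 chaperone of the endoplasmic reticulum, had 76.8 FPKM at 4-5 h and 366 FPKM at 2-3 h, and Lsd-2, a perilipin that coats lipid droplets, had 61.8 and 331 FPKM. Each of these 5 was higher at 0-0.5 h than at 2-3 h, whereas the sixth of the set by FPKM at 2-3 h, CG34214, had 30.3 FPKM at 0-0.5 h, 302 FPKM at 2-3 h and 56.4 FPKM at 4-5 h.

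The maternal patterning and germ line transcripts fell by smaller amounts. Of 21 egg activation and maternal patterning genes, all of which entered, 11 fell and 1 rose, with a median of -1.03. The cell cycle regulator gene gnu, needed for the first nuclear divisions, had 51.9 FPKM at 4-5 h and 249 FPKM at 2-3 h, swa, which helps to anchor bcd mRNA, had 48.2 and 162 FPKM, and the receptor gene tor had 44.0 and 97.7 FPKM. The fall of tor was not called under quantile normalization, nor that of bcd there or under median-of-ratios scaling. The inhibitor of Dorsal, cact, and the Toll receptor gene Tl stayed high, at 530 and 128 FPKM at 4-5 h, against 627 and 177 FPKM at 2-3 h, and were not called. In the germ plasm list 6 of 10 fell, with a median of -1.20. There, pgc, which silences transcription in the germ cells, had 88.6 FPKM at 4-5 h and 225 FPKM at 2-3 h, and gcl, needed for germ cell formation, had 27.2 and 131 FPKM. The Piwi family gene AGO3 had 140 FPKM at 4-5 h and 206 FPKM at 2-3 h and was not called.

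Genes of general cell functions mostly drifted downwards without a call. None of the 19 cell cycle genes rose or fell in the knockout, and their median was -0.38. When the tables were scaled to a common total 2 of them fell, Myt1 and aur. CycA and CycB, the mitotic cyclins, had 790 and 863 FPKM at 4-5 h, against 1252 and 1423 FPKM at 2-3 h, and the maternal Cdc25 phosphatase gene twe had 165 and 238 FPKM. The zygotic Cdc25 gene stg, whose pulses drive the divisions after cellularisation, had 39.6 FPKM at 4-5 h and 30.5 FPKM at 2-3 h. Among 13 mRNA decay and repression genes only Pop2, the deadenylase subunit, fell, to 80.4 FPKM at 4-5 h, against 186 FPKM at 2-3 h, and smg, which drives maternal mRNA clearance, had 392 and 542 FPKM. Of 11 heat shock and chaperone genes that entered (13 were listed), 4 fell, namely Hsp22, Hsp27, Hsp60 and Hsc70-3, and none rose, with a median of -0.92. Of 9 maternal transcriptional activators only grh rose, to 7.47 FPKM at 4-5 h, against 1.07 FPKM at 2-3 h, and vfl (Zelda), the main activator of the zygotic genome, had 18.7 and 17.5 FPKM.

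Of 19 aminoacyl-tRNA synthetase genes, 5 fell and none rose, with a median of -0.68, and of 29 proteasome subunit genes that entered (41 were listed), 3 fell and 1 rose, with a median of -0.60. Among all genes 12.3% fell and 14.7% rose, so the share of proteasome genes that fell was near the background. With the tables scaled to a common total 8 synthetase and 9 proteasome genes fell, beside 1340 of all 7657 genes. Aats-asn and Aats-gln, the synthetases for asparagine and glutamine, had 15.5 and 11.2 FPKM at 4-5 h, against 47.5 and 35.6 FPKM at 2-3 h. Rpt1 and Rpt3, ATPase subunits of the proteasome, had 32.5 and 23.2 FPKM at 4-5 h, against 89.3 and 48.7 FPKM at 2-3 h, and the call of Rpt3 ended under median-of-ratios scaling and quantile normalization. Cytoplasmic ribosomal protein genes moved the other way, with a median of 0.48. Of 89 that entered (93 were listed), 2 rose and 1 fell, and the list held 42.2% of all FPKM at 4-5 h and 34.2% at 2-3 h. The 1 that fell was RpLP0, with 139 FPKM at 4-5 h and 343 FPKM at 2-3 h, and the 2 that rose were RpL37b and RpS19b, both under 6 FPKM at 4-5 h. Under quantile normalization the median of the ribosomal protein list was 0.00, so its upward shift depends on the scaling. The 74 mitochondrial ribosomal protein genes had 9 that rose and 4 that fell. Their median was -0.14, near the -0.13 of all genes, and became 0.06 under quantile normalization. None of the 13 mitochondrially encoded mRNAs was called.

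**Figure D2:**
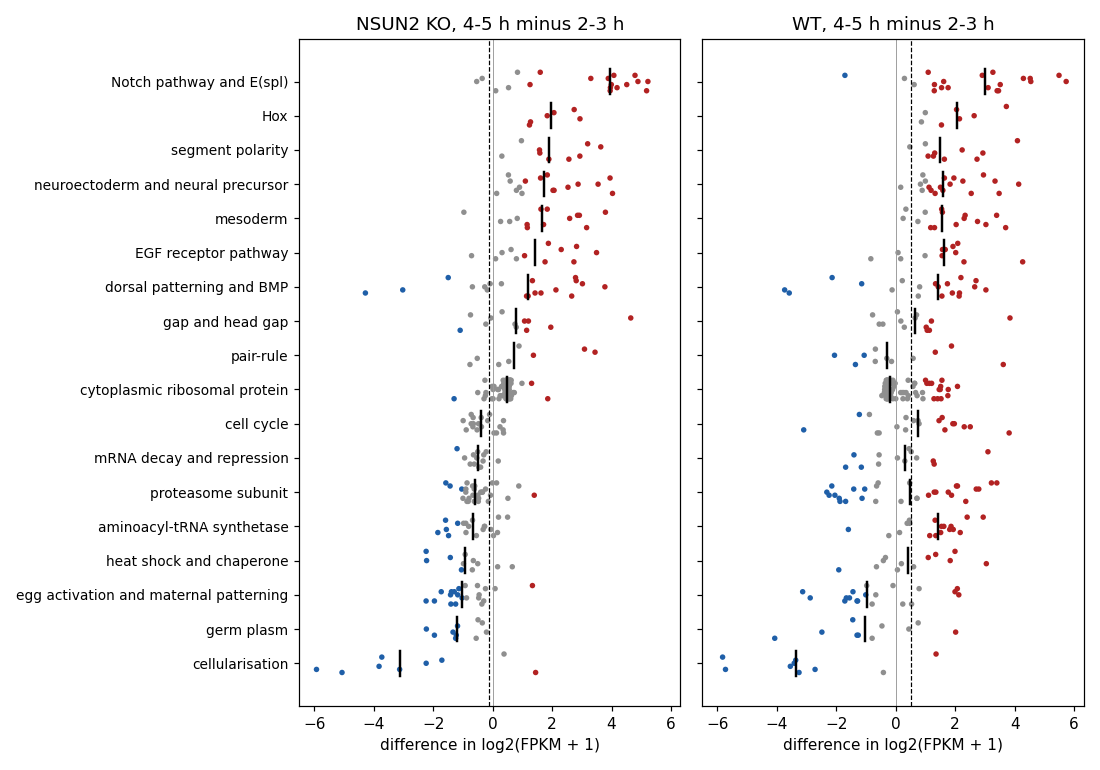
Each point is 1 gene of the named list, placed at its difference in log2(FPKM + 1), 4-5 h minus 2-3 h, in knockout embryos (left) and in WT embryos (right). Red points rose, blue points fell and grey points did neither, the short bars are list medians and the dashed lines the medians of all genes, -0.13 in the knockout and 0.52 in WT. The cell cycle list has no coloured point in the knockout panel and 8 red and 2 blue points in the WT panel.

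Several smaller groups are of interest for the knockout. The replacement histone gene His3.3A had 838 FPKM at 4-5 h and 382 FPKM at 2-3 h and rose, a call that was lost when each table was scaled to the same total. The centromeric histone gene cid rose to 37.7 FPKM at 4-5 h, against 11.6 FPKM at 2-3 h, and the linker histone variant of the early embryo, BigH1 (CG3509), fell to 146 FPKM at 4-5 h, against 464 FPKM at 2-3 h. Of 9 actin and tubulin genes that entered (14 were listed), 1 rose and 2 fell. Act87E, a muscle actin gene, rose to 52.5 FPKM at 4-5 h, against 2.79 FPKM at 2-3 h. The maternal tubulin gene alphaTub67C fell to 14.6 FPKM at 4-5 h, against 35.5 FPKM at 2-3 h. Of the 8 genes of m5C and RNA methylation, 2 rose. Ime4, which encodes the catalytic subunit for N6-methyladenosine in mRNA, had 41.6 FPKM at 4-5 h and 4.66 FPKM at 2-3 h, and Mt2 (Dnmt2), another tRNA cytosine methyltransferase, had 12.1 and 5.50 FPKM. The call of Mt2, like that of His3.3A, was lost when the tables were scaled to a common total.

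Among 16 genes of sex determination and dosage compensation that entered (17 were listed), 5 rose and 1 fell. Sxl, the X-linked switch gene of female development, had 104 FPKM at 4-5 h and 33.4 FPKM at 2-3 h. The non-coding RNA roX1, which guides the complex that doubles transcription from the male X, had 118 FPKM at 4-5 h and 21.6 FPKM at 2-3 h. The complex's limiting protein gene msl-2 had 2.81 FPKM at 4-5 h and 0.865 FPKM at 2-3 h, and sisA and dsx also rose. The gene tra2 fell to 33.0 FPKM at 4-5 h, against 72.1 FPKM at 2-3 h, while msl-1, msl-3, mle and mof were not called. Under quantile normalization the calls of msl-2, dsx and tra2 ended and mle was called risen.

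The genes were also grouped by their presence at the start. Of the 7657 genes, 6740 had FPKM of at least 1 at 0-0.5 h in the knockout and 917 were below. Of the 917, 674 entered only through the 4-5 h table, where they were the higher by construction, and 477 of these 674 rose. Of the other 243, which had FPKM of at least 1 at 2-3 h, 133 rose and 13 fell. Of the 6740, 514 rose (7.63%) and 928 fell (13.8%). The 13 that were below 1 at 0-0.5 h and fell had all risen by 2-3 h. Of the 928 present from the start that fell, 712 had not been called from 0-0.5 h to 2-3 h, 186 had already fallen in that step and 30 had risen. The filter on low values and the shared 2-3 h table set part of these counts, which are given as a description.

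**Figure D3:**
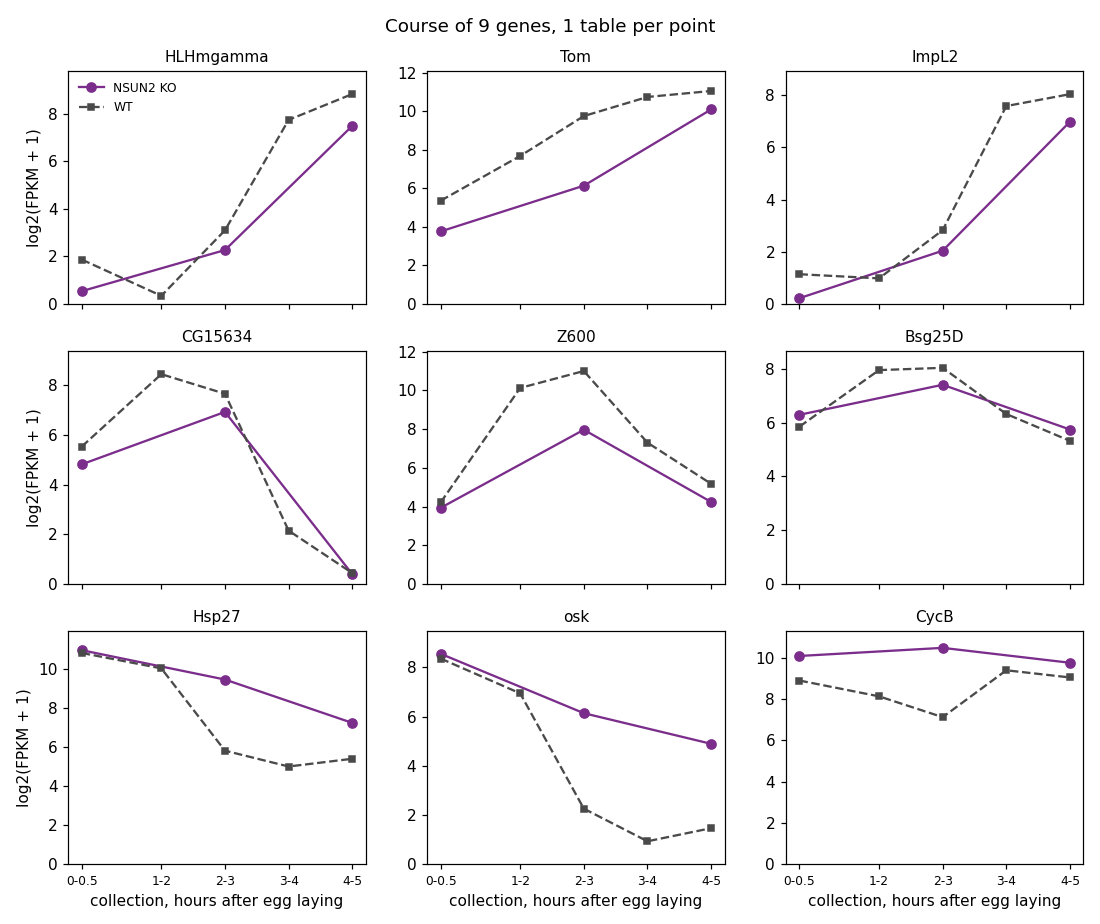
Points give log2(FPKM + 1) of 9 genes at each collection, in hours after egg laying, for knockout embryos (purple circles, 3 collections) and WT embryos (grey squares, 5 collections), 1 table per point. HLHmgamma, Tom and ImpL2 are highest at 4-5 h in both genotypes, CG15634, Z600 and Bsg25D peak before 4-5 h, Hsp27 and osk are lower at 4-5 h than at 2-3 h in the knockout, and CycB dips at 2-3 h in WT embryos but not in the knockout.

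The same window in WT embryos was used to see where the knockout course differed. By the same rule, 2712 of 8035 genes rose in WT (33.8%) and 951 fell (11.8%), with a median difference of 0.52. Under median-of-ratios scaling 1535 rose and 2001 fell in WT, with a median of -0.08, and under quantile normalization 1559 rose and 1372 fell, with a median of 0.05, so the balance of the WT calls depended on the scaling. Of the 1124 genes that rose in the knockout, 843 rose in WT (75%), 272 were not called and 3 fell. Of the 941 that fell in the knockout, 214 fell in WT (22.7%), 524 were not called, 121 rose and 82 did not pass the filter. The shared share was 50.3% of the risen and 38.4% of the fallen knockout genes under median-of-ratios scaling, and 60.0% and 34.5% under quantile normalization. Among the late sets, 110 of the 129 late activated genes rose in WT and 59 of the 104 late cleared genes fell in WT. Across the 7378 genes in both comparisons, the differences of the 2 genotypes had a Pearson correlation of 0.49 and a Spearman correlation of 0.44, over genes, which are not replicates. No test of the difference between genotypes could be made with 1 table per condition.

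**Figure D4:**
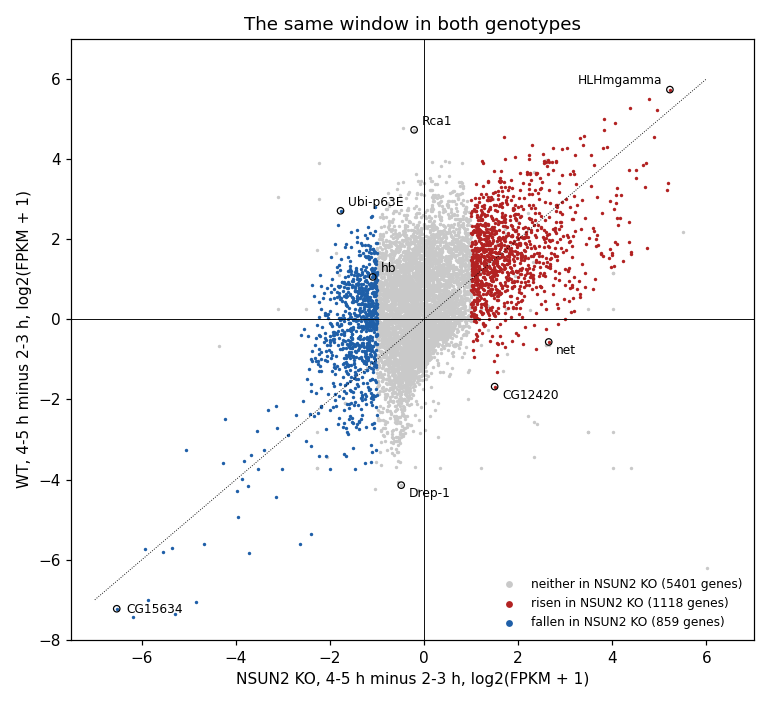
Each point is 1 of the 7378 genes that entered the comparison in both genotypes, with the difference in log2(FPKM + 1), 4-5 h minus 2-3 h, of knockout embryos on the horizontal and of WT embryos on the vertical axis. Red and blue points rose and fell in the knockout, and the dotted line marks equal differences. HLHmgamma and CG15634 lie near the dotted line, Rca1 and Ubi-p63E far above it, and CG12420, net and Drep-1 far below it.

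Genes whose knockout change lay furthest above the WT change were of 2 kinds. Drep-1, a relative of the DNA fragmentation factors, and AGO3 were not called in the knockout and fell in WT. Drep-1 had 85.8 FPKM at 4-5 h and 121 FPKM at 2-3 h in the knockout, and 3.86 FPKM at 4-5 h and 84.6 FPKM at 2-3 h in WT. AGO3 had 140 FPKM at 4-5 h and 206 FPKM at 2-3 h in the knockout, and 10.5 FPKM at 4-5 h and 191 FPKM at 2-3 h in WT. The basic helix-loop-helix gene net, CG12420 and the bithorax non-coding gene bxd rose in the knockout, where net had 25.3 FPKM at 4-5 h and 3.20 FPKM at 2-3 h, and were already high in WT, where net had 43.2 FPKM at 4-5 h and 64.4 FPKM at 2-3 h. CG12420 had 42.0 FPKM at 4-5 h and 14.2 FPKM at 2-3 h in the knockout, and 64.8 FPKM at 4-5 h and 210 FPKM at 2-3 h in WT.

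Those furthest below the WT change were Rca1, Ubi-p63E, CG2982, C1GalTA and CG5641, and all 5 rose in WT. Rca1, an inhibitor of the ubiquitin ligase that ends mitosis, had 28.4 FPKM at 4-5 h and 33.1 FPKM at 2-3 h in the knockout, and 43.3 FPKM at 4-5 h and 0.669 FPKM at 2-3 h in WT. Ubi-p63E, a polyubiquitin gene, had 34.0 FPKM at 4-5 h and 119 FPKM at 2-3 h in the knockout, and 49.6 FPKM at 4-5 h and 6.74 FPKM at 2-3 h in WT.

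A fall followed by a rise was called for more genes in WT than in the knockout. In both genotypes the single 2-3 h table ends the fall and starts the rise, so a low value there can make both calls. Over 0-0.5, 2-3 and 4-5 h, 254 of 6981 genes (3.64%) fell and then rose in the knockout, against 1030 of 7227 genes (14.3%) in WT. They shared 79 genes, which is 31.1% of the knockout genes and 7.67% of the WT genes. Of the other 951 genes with this course in WT, 827 were not called from 2-3 h to 4-5 h in the knockout, 112 fell and 12 rose. The 79 shared genes, which rose in the knockout, were left out of these 951, so the count of 12 was set in part by construction. Among all 7657 knockout genes, 14.7% rose and 12.3% fell. CycB is an example, with 1083 FPKM at 0-0.5 h, 1423 FPKM at 2-3 h and 863 FPKM at 4-5 h in the knockout, and 475, 138 and 526 FPKM at the same ages in WT. Of the 19 cell cycle genes 8 rose and 2 fell in WT, and of 18 aminoacyl-tRNA synthetase genes 12 rose and 1 fell, beside 33.8% risen and 11.8% fallen among all WT genes, so the cell cycle counts were near the background. The size of this contrast depended on the scaling, since the WT count was 559 under median-of-ratios scaling and 419 under quantile normalization, while the knockout count was 267 and 214.

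At 4-5 h the knockout was still apart from WT of the same age for the genes that moved. Of the 1124 risen genes, 1008 (89.7%) had a knockout interval below the WT interval at 4-5 h, beside 42.1% of all 7657 genes. Tom, for example, had 1098 FPKM in the knockout and 2135 FPKM in WT at 4-5 h. Of the 941 fallen genes, 496 (52.7%) had a knockout interval above the WT interval at 4-5 h, beside 34.3% of all genes. Their median knockout minus WT difference was 0.35 at 4-5 h and 1.79 at 2-3 h, beside -0.10 and 0.40 for all genes, and a high knockout value at 2-3 h is part of how they were chosen. For the risen genes the difference was -0.83 at 4-5 h and -0.87 at 2-3 h, and a low knockout value at 2-3 h is part of how the risen genes were chosen. For osk the knockout had 28.8 FPKM and WT 1.77 FPKM at 4-5 h, and for Hsp27 the knockout had 151 FPKM and WT 41.4 FPKM.

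The levels that the knockout reached at 4-5 h were also set against each WT age. For the 1124 risen genes, WT embryos were at or above the knockout level in 192 genes at 2-3 h (17.1%), 1046 at 3-4 h (93.1%) and 1094 at 4-5 h (97.3%), beside 32.5%, 57.0% and 55.0% of all 7657 genes. In 793 of them the level was first reached at 3-4 h. For the 941 fallen genes, WT was at or below the knockout level in 638 genes at 2-3 h (67.8%), 527 at 3-4 h (56.0%) and 639 at 4-5 h (67.9%), beside 67.6%, 43.3% and 45.2% of all genes. The share at 2-3 h was thus near that of all genes. Both lists were chosen with the 4-5 h knockout table that enters these counts.

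The X chromosome differed from the autosomes in the knockout window. Of 1223 X-linked genes that entered, 108 rose (8.83%) and 186 fell (15.2%), whereas on the arms 2L, 2R, 3L and 3R between 15.4% and 16.8% rose and between 10.9% and 13.1% fell. The median difference was -0.32 for X-linked genes and -0.10 for the 6267 genes of these 4 arms, whose own medians ran from -0.18 to -0.02. The lower median of the X held in genes with FPKM of at least 1 at 0-0.5 h in the knockout (-0.38 against -0.21) and also in those below it. From 0-0.5 h to 2-3 h in the knockout, the same X-linked and autosomal genes both had a median of 0.03. In WT the window showed no such deficit, with 37.2% of X-linked genes risen and medians over the same genes of 0.54 on the X and 0.39 on the 4 arms, although the X was the lower of the 2 in the WT steps before 2-3 h and after 3-4 h. Chromosome 4, with 67 genes, had 10 risen and 3 fallen genes in the knockout.

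**Figure D5:**
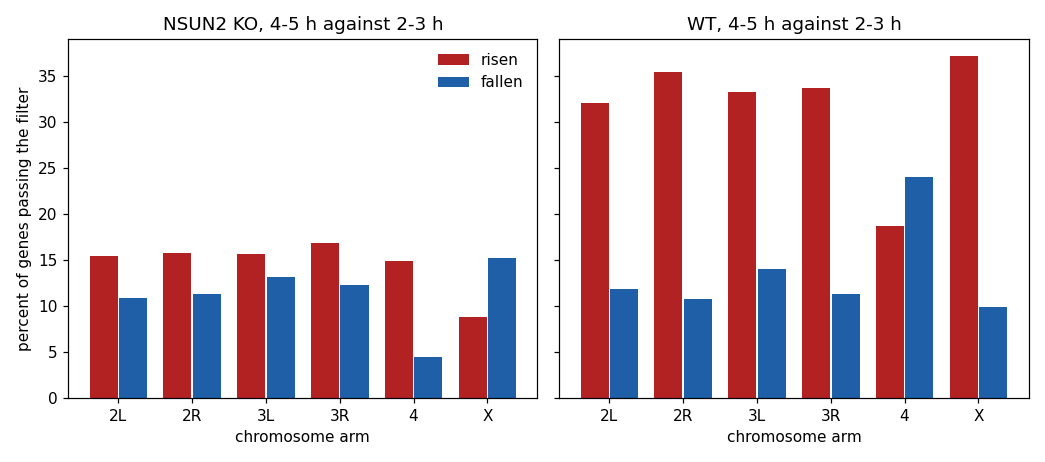
Bars give the percentage of genes on each chromosome arm that rose (red) or fell (blue) from 2-3 h to 4-5 h, out of the genes that entered the comparison, in knockout embryos (left) and WT embryos (right). In the knockout the X has 8.83% risen and 15.2% fallen genes, while in WT it has 37.2% risen and 9.92% fallen genes.

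The span of a gene in the genome also went with its change. When the genes were cut into 5 equal classes of span, 1534 had spans of 65 to 1184 bases. Of these, 16.6% rose and 7.30% fell, and the median difference was 0.22. In the other 4 classes between 11.0% and 17.0% rose, between 12.6% and 14.7% fell and the medians lay between -0.29 and -0.10. In WT the order was the opposite, with a median of 0.10 in the shortest class and between 0.39 and 0.73 in the others. The ribosomal protein genes are mostly short, and their part in this pattern was not tested.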

How the data were processed

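mRNA-seq tables of maternal NSUN2 knockout embryos at 4-5 h and 2-3 h were compared, with the knockout table of 0-0.5 h and 5 WT tables as context. Polyadenylated RNA was sequenced from a directional library. Per the submitters' processing notes, bcl2fastq 2.17, cutadapt 1.13, TopHat2 and Cufflinks were used with BDGP5, and the authors deposited FPKM values of uniquely aligned fragments with interval bounds. The methods say that replicates were averaged, and 1 table per condition was used here. Whether a table is an average, 1 replicate or a merged library was not settled. Fragment counts were not analysed here, so depth is known only through the intervals. FPKM is relative to each library's mapped fragments, so a change in abundant genes moves the others. A spike-in mix was added per the protocol, but 0 of the 15598 gene IDs belong to it.

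The deposited FPKM values were transformed to log2(FPKM + 1) with Python 3.11.15, numpy 2.4.6 and pandas 2.3.3, and figures with matplotlib 3.10.9. The pseudocount of 1 understates changes of low genes. A gene entered where Cufflinks gave status OK and FPKM was at least 1 in at least 1 of the 2 tables. The calls were tested on simulated data. No replicates allowed a test. The genes named are Nsun2, and, among genes that reached 10 FPKM in a knockout table, a lower bound above 0 and a span of at least 300 bases, the 10 largest rises and falls, the 6 highest late activated and late cleared genes, the 5 highest genes that rose and then fell, the 5 largest differences from WT in each direction, and up to 4 genes per list by FPKM. Other list members named were chosen after their values were seen. The members, lists and rules were chosen with earlier results of these data known. The alternatives were other pseudocounts, filters, scalings and call rules. Gene symbols and coordinates are those of the tables.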

Additional observations from a re-analysis of the deposited data

Results flagged for a closer look

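Of the genes named and the members of the lists, 9 were called in opposite directions in the 2 genotypes from 2-3 h to 4-5 h. With 1 table per condition the difference was not tested. Among all 7378 genes in both comparisons, 121 fell in the knockout and rose in WT, and 3 rose in the knockout and fell in WT. Ubi-p63E and CG12420 were named for their large differences between the genotypes, so their place among the 9 was set in part by construction. The knockout change minus the WT change on the log2(FPKM + 1) scale was -4.49 for Ubi-p63E, -4.19 for the muscle actin gene Act57B, -3.83 for Rpt3, -3.47 for Rpt1, -3.37 for Aats-asn, -2.91 for Aats-gln, -2.52 for the mitochondrial chaperone gene Hsp60 and -2.15 for hb, all of which fell in the knockout and rose in WT. It was 3.18 for CG12420, which rose in the knockout and fell in WT. Under median-of-ratios scaling and quantile normalization 5 of the 9 kept opposite calls, and hb, Hsp60, Aats-gln and Rpt3 did not, while all 9 kept opposite signs. Act57B had 0.0807 FPKM at 4-5 h and 2.84 FPKM at 2-3 h in the knockout, and 5.99 FPKM at 4-5 h and 0.361 FPKM at 2-3 h in WT.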

How the results depend on the processing

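No paired analysis was possible because the labels carry no replicate numbers and each condition has 1 table, and no replicate could be left out. None of the 85 called genes that the naming rule chose changed direction under the 11 alternatives. Only the scalings could have turned a direction, since the pseudocounts, filters and call rules keep the sign of a difference. With a pseudocount of 5 the counts were 529 risen, 565 fallen and 46 late cleared genes in the knockout and 1548 risen genes in WT, and with a difference of at least 2 they were 361 risen and 105 fallen genes in the knockout and 839 and 255 in WT. An FPKM of at least 5 in at least 1 table left 730 risen and 863 fallen genes, and no filter on low values moved the median of all knockout genes to 0.0215. Scaling the tables to a common total moved that median to -0.31 and the late cleared genes to 161. It turned the balance of knockout calls, since 1021 genes rose and 1340 fell, so that 43.2% of called genes rose in place of 54.4%. Median-of-ratios scaling gave 1535 risen and 2001 fallen genes in WT, with 43.4% of called genes risen in place of 74.0%, and 559 WT genes that fell and then rose. Quantile normalization gave 71 late activated genes in the knockout, and 1559 risen genes and 419 that fell and then rose in WT. The scalings of this last course, of the calls shared by the genotypes and of the list members were chosen after its values were seen. A pseudocount of 5 ended the call of 7 of the 85 genes (hb, odd, abd-A, Ubx, rib, bnl and fkh) and, among other list members named here, of twi, bcd, Egfr, S, vn, sty, Hsp22, Hsp60, msl-2, dsx, Mt2, RpL37b, RpS19b, Rpt3 and Act57B, and a difference of at least 2 that of 19 of the 85. Scaling to quantiles brought the list median of the ribosomal proteins to 0.00, turned those of the mitochondrial ribosomal proteins and maternal activators and ended the calls of Hsp22 and RpS19b, and scaling to a common total that of actins and tubulins. The tables give no spread between collections, and all values are relative to each library's total.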
